A study of Mus musculus with 2 samples.

Results

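Ctsl, Ctsb, Ctsd, Ctss, Ctsz and Cst3 encode 5 lysosomal proteases, the cathepsins L, B, D, S and Z, and cystatin C, a secreted inhibitor of cathepsins. They are 6 of the 10596 distinct genes in the authors' deposited tables of mouse hippocampus, which hold 1 table for each of 9 annotated cell types. The genes were chosen by name, with the microglia table first, because earlier readings of these tables had shown several of them higher after exposure. Their fold changes and detected shares are therefore given as a description, with no test. At least 1 of the 6 genes was listed in 8 of the 9 tables, in 29 entries in all.

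The GWI library came from male C57BL/6J mice that were injected intraperitoneally from 10 weeks of age, daily for 10 days, with pyridostigmine bromide at 0.7 mg/kg, a cholinesterase inhibitor, and permethrin at 200 mg/kg, a pyrethroid insecticide. The Control library came from male mice of the same age that received vehicle on the same schedule. The comparison label GWI_PBS_vs_Ctrl_PBS carries PBS for both groups, and PBS was taken here, as an assumption, to be the vehicle. The exposure models Gulf War Illness (GWI), a chronic illness of veterans of that war. At 19 months the hippocampi of 3 mice per group were taken and pooled, and nuclear RNA of the pool gave 1 library. The series gives 1 strain for all mice, while the genotype labels differ, with C57/BL7 on the GWI sample and C57/BL6 on the Control one. With 1 library per group there is no spread between replicates, so every difference below is between these 2 libraries and carries no error, p-value or count of significant genes. The sources used here give neither the number of nuclei per table nor the molecules per nucleus, so no counting interval is given. Libraries were sequenced to 25000 or more reads per nucleus, per the labels.

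Cathepsins are made as inactive precursors, sorted to endosomes and lysosomes, and activated there by the acid pH and by proteolysis. Cathepsins L, B, S and Z are cysteine proteases, which cystatins inhibit, while cathepsin D is an aspartic protease that cystatin C does not inhibit. In the brain, microglia, the resident phagocytes, use these enzymes to break down engulfed material and protein antigens, and neurons need them for the turnover of their own proteins and organelles. Cystatin C is released by several brain cell types, astrocytes and microglia among them, and is abundant in cerebrospinal fluid.

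In microglia all 6 genes were higher in the GWI library, and the largest log2 fold change was that of Ctsl. Cathepsin L is an endopeptidase with broad specificity. In the authors' deposited microglia table Ctsl transcripts were found in 25.8% of GWI nuclei and in 10.8% of Control nuclei. Its deposited log2 fold change of 1.32, which is 2.50-fold, was the highest of the 2534 genes of the table. The share of microglial nuclei with a Ctsl transcript was thus 15.0 percentage points higher in the GWI library.

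Cst3 stood close behind. The authors' deposited microglia table has Cst3 detected in 74.8% of GWI nuclei and in 56.0% of Control nuclei. The deposited log2 fold change was 0.97, or 1.96-fold, the 5th highest of the table. A cathepsin gene and the gene of a cathepsin inhibitor were therefore both among the 5 highest values of the microglia table.

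Ctss encodes cathepsin S, a protease of antigen-presenting cells that cuts the invariant chain of MHC class II and remains active at neutral pH. Per the authors' deposited table for microglia, 77.0% of GWI nuclei had a transcript of it, against 64.7% of Control nuclei, with a log2 fold change of 0.63 and place 35. Ctsz encodes cathepsin Z, a carboxypeptidase. The same deposited table has Ctsz in 18.4% of GWI nuclei and 13.7% of Control nuclei, with a log2 fold change of 0.44 and place 116. Ctss and Ctsz were listed in the microglia table and in none of the other 8 tables.

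Ctsb encodes cathepsin B, which acts both inside a protein chain and from its carboxyl end, and Ctsd encodes cathepsin D, the main aspartic protease of lysosomes. Their log2 fold changes were the smallest of the 6 genes and nearly equal. Ctsb was detected in 45.2% of GWI and 38.3% of Control microglial nuclei in the authors' deposited table, with a log2 fold change of 0.33 at place 230. Ctsd was detected in 56.7% of GWI and 49.2% of Control nuclei in that table, with a log2 fold change of 0.33 at place 233. Each of the 6 genes was thus above at least 90.8% of the table's genes.

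**Figure D1:**
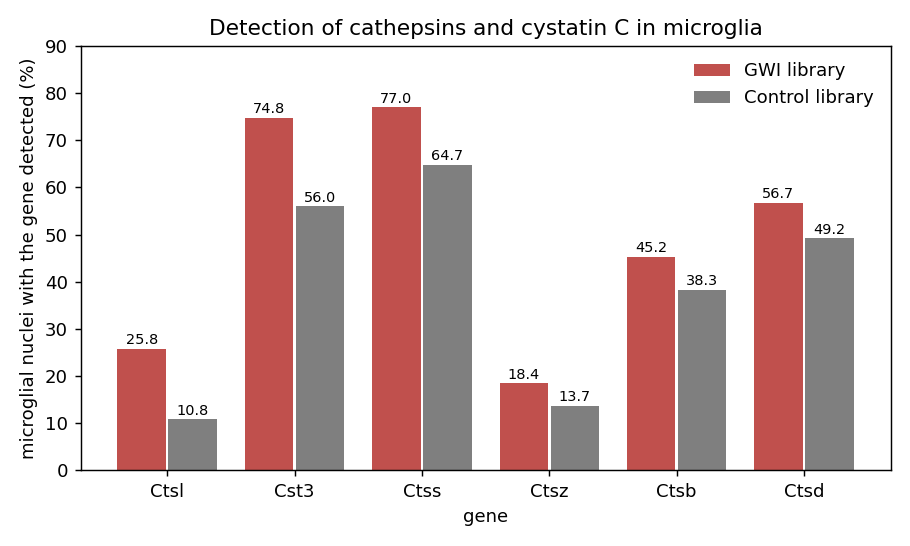
Share of microglial nuclei with each gene detected, in percent, for the GWI library (red, left bar) and the Control library (grey, right bar), 1 pooled library each and so without error bars. The GWI bar is the taller in all 6 genes, by at most 18.8 percentage points, for Cst3, and by at least 4.7, for Ctsz.

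The whole microglia table sets the scale for these values. A log2 fold change above 0 was found for 46.8% of its genes and for 6 of the 6. A value of at least 0.25 was reached by 15.2% of the genes and by 6 of the 6. A value of at least 0.5, the size rule used here, was reached by 2.96% of the genes and by Ctsl, Cst3 and Ctss. Only 0.118% of the genes, among them Ctsl, reached a log2 fold change of 1. The median over the 6 genes was 0.53, against -0.06 over all genes of the table. These counts and medians describe genes that were picked with the values known and are no independent evidence of a direction.

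Gene length moved with these values. The 6 genes are 3.97 to 29.6 kb long, and the microglia table holds 368 genes within that range, of which 72.8% were higher in the GWI library and 11.1% had a log2 fold change of at least 0.5. The median of those genes was 0.19, and all 6 of the genes described here lay above it. Detection was also somewhat higher in general, since the median gene of the microglia table was detected in 17.8% of GWI and 16.5% of Control nuclei. The part of gene length and of detection in the differences was not tested.

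**Figure D2:**
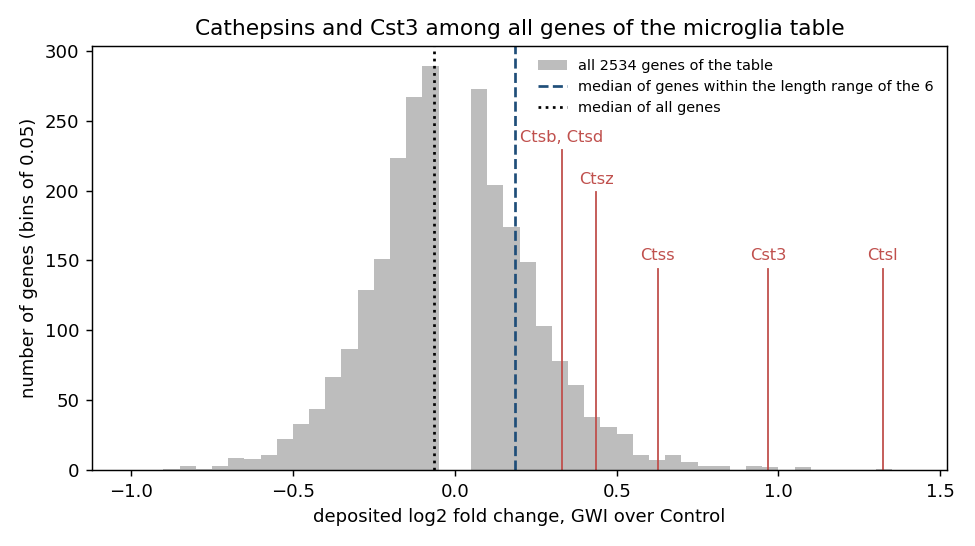
Number of genes of the microglia table by deposited log2 fold change, GWI over Control, in bins of 0.05, with the 6 genes marked by red lines. The gap around 0 is the authors' minimum of 0.05 for listing a gene. Ctsl at 1.32 and Cst3 at 0.97 lie at the right end, while Ctsb and Ctsd at 0.33 lie in the shoulder of the distribution, to the right of the median of genes of similar length (dashed, 0.19) and of all genes (dotted, -0.06).

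The table's cell type label was checked against its markers. Of 10 microglial marker genes 8 were listed, 7 of them higher, with P2ry12 in 79.7% of GWI and 66.7% of Control nuclei of the authors' deposited table. Csf1r and Aif1 were not listed. The complement genes C1qc and C1qa, also markers, had log2 fold changes of 0.84 and 0.75 in that deposited table. The summed detected shares of the 8 markers were 503.9% in the GWI library and 427.3% in the Control library. Most of the listed marker genes were thus higher, as were the cathepsins, and the part of gene length in this was not tested. Of 55 marker genes of other cells 8 were listed in the deposited microglia table. Beside 46.8% of all genes, 1 of these 8 was higher. Their detected shares ranged from 10.6% to 34.7% in GWI nuclei and from 9.5% to 36.6% in Control nuclei, with sums of 183.5% in the GWI library and 187% in the Control library. The lowest log2 fold change among them was that of the astrocyte transporter gene Slc1a2, at -0.39. None of 7 markers of border macrophages was listed. How much RNA of other cells bears on the 6 genes was not tested.

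Across cell types Ctsl was higher in all 7 tables that list it. Its deposited log2 fold changes were 1.32 in microglia, 0.77 in endothelial cells, 0.72 in inhibitory neurons, 0.56 in oligodendrocyte precursor cells (OPCs), 0.52 in astrocytes, 0.49 in the table named Other and 0.48 in excitatory neurons. In the authors' deposited tables the microglial value was the highest, and 5 of the 7 values reached 0.5. In inhibitory neurons Ctsl held place 19 of 5656 genes, with detection in 19.2% of GWI and 12.8% of Control nuclei. In astrocytes it held place 52 of 5121 genes, with 15.2% of GWI and 9.7% of Control nuclei. In OPCs the deposited shares were 13.9% of GWI and 7.6% of Control nuclei. A high place among the genes of a table was thus not limited to microglia, but in endothelial cells, where values spread widely, 0.77 gave only place 700 of 5129.

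The order of cell types by Ctsl detection was not the same in the libraries. Among the 7 tables microglia came first in the GWI library at 25.8%, ahead of Other at 23.6%, inhibitory neurons at 19.2%, excitatory neurons at 17.0% and endothelial cells at 16.5%. In the Control library microglia came 4th at 10.8%, after Other at 15.1%, inhibitory neurons at 12.8% and excitatory neurons at 11.5% and before endothelial cells at 10.5%, in the authors' deposited shares. No spread is known for any share, so neighbours in either order cannot be told apart, and depth per nucleus can differ between cell types.

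Cst3 was likewise higher in all 7 tables that list it. The deposited log2 fold change was 0.97 in microglia, 0.49 in OPCs, 0.47 in astrocytes, 0.36 in inhibitory neurons, 0.32 in pericytes, 0.29 in Other and 0.12 in excitatory neurons. Only the microglial value reached 0.5. By detection microglia came first in both libraries and astrocytes second. In astrocytes Cst3 was detected in 46.7% of GWI and 38.2% of Control nuclei and held place 90 of 5121 in the authors' deposited table. In the neuron tables its deposited shares were 27.1% of GWI and 23.2% of Control excitatory nuclei, and 22.5% of GWI and 18.9% of Control inhibitory nuclei. The log2 fold change was smallest in excitatory neurons, where 69.0% of the table's genes had a lower value.

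Ctsb was higher in each of the 6 tables that list it, and the microglial value was not the highest. The deposited log2 fold changes were 0.97 in pericytes, 0.52 in OPCs, 0.35 in inhibitory neurons, 0.33 in microglia, 0.16 in endothelial cells and 0.09 in excitatory neurons. The pericyte value rested on 12.8% of GWI and 9.5% of Control nuclei, in a deposited table whose fold changes had a standard deviation across genes of 0.96, against 0.26 in microglia. Excitatory neurons had the widest detection of Ctsb, with 51.6% of GWI and 46.4% of Control nuclei in the authors' deposited table. In endothelial cells fewer GWI nuclei had the gene, 23.3% against 25.3% of Control nuclei, although the deposited fold change was positive.

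Ctsd was the only one of the 6 genes with values on both sides of 0. It was higher in 3 tables, with deposited log2 fold changes of 0.96 in endothelial cells, 0.33 in microglia and 0.07 in astrocytes. It was lower in 4, with deposited log2 fold changes of -0.92 in OPCs, -0.22 in Other, -0.20 in excitatory neurons and -0.09 in inhibitory neurons. In OPCs the gene was detected in 11.0% of GWI and 15.5% of Control nuclei, and its value ranked 4447 of 4475 in the authors' deposited table. A value of -0.5 or less was found for 6.59% of OPC genes. In excitatory neurons the deposited shares differed little, 17.2% of GWI and 17.4% of Control nuclei, as they did in inhibitory neurons at 17.8% of GWI and 18.1% of Control nuclei. In endothelial cells Ctsd was in 20.4% of GWI and 13.7% of Control nuclei. The difference between cell types was not tested, since each value compares 1 library with 1 library.

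**Figure D3:**
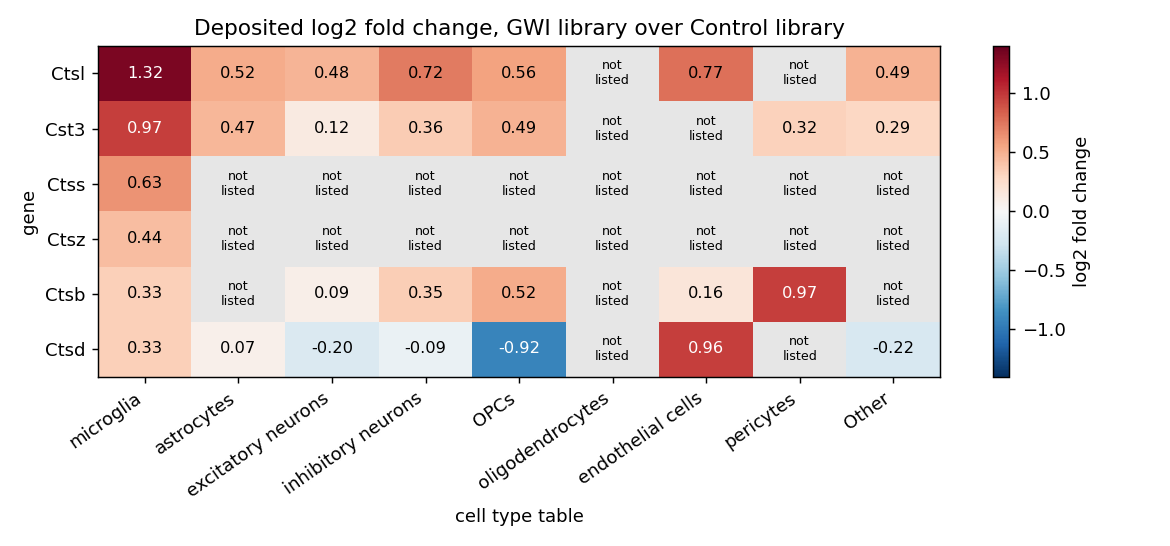
Deposited log2 fold change, GWI over Control, of each of the 6 genes (rows) in each of the 9 cell type tables (columns), with red for higher in the GWI library, blue for lower and grey where the table does not list the gene. The microglia column is positive throughout, Ctsl and Cst3 are positive wherever listed, and the only negative cells are those of Ctsd in both neuron tables, OPCs and Other.

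Of the 29 entries 25 were higher in the GWI library, where 50.0% of all 41442 entries of the 9 tables were. By table, the genes higher were 3 of 3 in astrocytes (48.6% of all genes of that table), 3 of 4 in excitatory neurons (52.3%), 3 of 4 in inhibitory neurons (50.6%) and 3 of 4 in OPCs (50.7%). They were 3 of 3 in endothelial cells (48.4%), 2 of 2 in pericytes (47.2%) and 2 of 3 in Other (53.1%). Among genes of 3.97 to 29.6 kb the shares higher were 64.4% in astrocytes, 67.5% in excitatory neurons, 69.1% in inhibitory neurons, 64.7% in OPCs, 49.7% in endothelial cells, 56.0% in pericytes and 59.4% in Other. Counts of 3 of 4 and 2 of 3 are near these shares. A log2 fold change of at least 0.5 was found in 10 of the 29 entries, against 7.11% of all entries. By table these were 3 of 6 in microglia (11.1% of genes of 3.97 to 29.6 kb), 1 of 3 in astrocytes (2.54%) and 1 of 4 in inhibitory neurons (3.10%). They were 2 of 4 in OPCs (19.7%), 2 of 3 in endothelial cells (26.7%) and 1 of 2 in pericytes (35.3%). Excitatory neurons had 0 of 4 (0.892%) and Other 0 of 3 (5.94%). Outside microglia the 23 entries had a median of 0.36 and ranged from -0.92 to 0.97.

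The rule by which the tables list genes touches these counts. A gene is listed when it was detected in at least 10% of nuclei of 1 library and its absolute log2 fold change was at least 0.05. In 3 of the 29 entries, Ctsl in astrocytes and OPCs and Ctsb in pericytes, the Control share was under 10%, so the gene was listed through the GWI library alone, and the reverse occurred in 0 entries. A gene that differed less than 0.05 is not listed, and the oligodendrocyte table, with 2053 genes, lists none of the 6. No level of these genes in oligodendrocytes is given here.

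RNA of microglia in other tables was looked for with the same 10 markers. P2ry12 was listed in astrocytes, at 10.2% of GWI and 6.9% of Control nuclei, and in excitatory neurons, at 11.6% of GWI and 8.9% of Control nuclei, of the authors' deposited tables. Cx3cr1 was listed in Other, at 14.1% of GWI and 13.4% of Control nuclei, and Inpp5d in endothelial cells, at 23.3% of GWI and 11.6% of Control nuclei. Ctss, detected in most microglial nuclei, was listed in none of these tables. The part of microglial RNA in the neuron, astrocyte and OPC values was not tested.

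The deposited fold change is built from transcript levels, and the detected shares give a separate view of the same nuclei. If transcripts were spread over nuclei at random, the ratio of the negative logarithms of the undetected shares would equal the fold in level. Computed in this way from the deposited shares, the implied log2 fold change was 1.38 for Ctsl in microglia, 0.75 for Cst3, 0.50 for Ctss, 0.46 for Ctsz, 0.32 for Ctsb and 0.31 for Ctsd. The deposited values were higher than the implied ones by 0.22 for Cst3 and by 0.13 for Ctss, and the other 4 genes differed by less than 0.1. The Ctsl difference in microglia was thus as large when read from the share of nuclei with a transcript as in the deposited fold change.

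Over all 29 entries the deposited and the implied fold had the same sign in 27. The exceptions were Ctsb in endothelial cells, deposited at 0.16 and implied at -0.14, and Ctsd in astrocytes, where the detected share was 15.3% in both libraries. The differences were widest where few nuclei had the gene, at 0.51 for Ctsb in pericytes and -0.39 for Ctsd in OPCs, deposited minus implied. The median implied log2 fold change over all genes was 0.11 in the microglia table and 0.16 in that of excitatory neurons, so detection was higher in the GWI library for the typical gene of both.

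**Figure D4:**
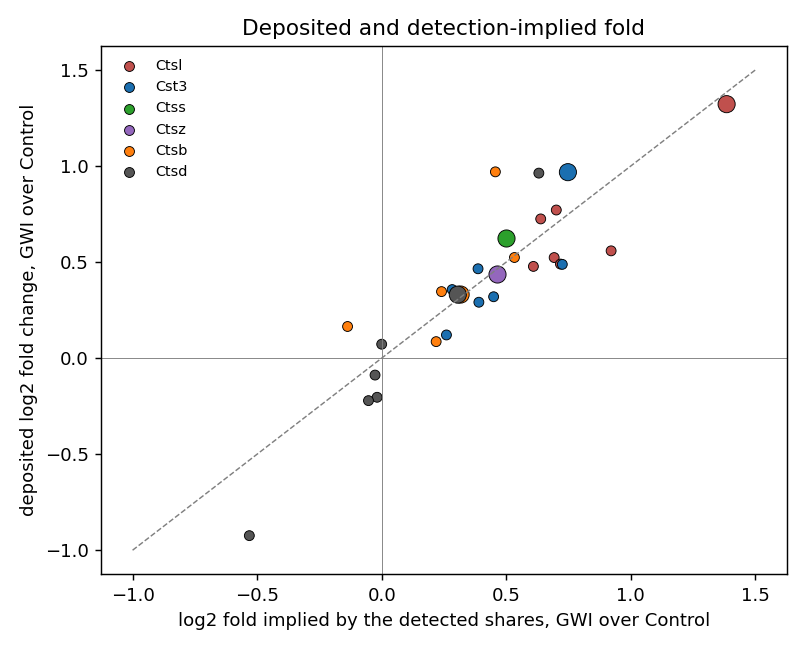
Deposited log2 fold change (vertical) against the log2 fold change implied by the detected shares (horizontal), GWI over Control, for the 29 entries, coloured by gene, with microglia as large points and equality as a dashed line. Ctsl in microglia stands alone at the upper right at 1.38 implied and 1.32 deposited, and the only points under 0 on the vertical axis are those of Ctsd, the lowest being OPCs at -0.92.

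Other cathepsins and cystatins were taken from a list of 18 further family members. Of these 6 were listed in some table, in 10 entries, and 9 of the entries were higher in the GWI library, where 50.0% of all entries were. Of these 9 entries 5 had a Control share under 10% and were listed through the GWI library alone, so the listing rule favours this direction: Ctsa in microglia, Ctso in astrocytes, Ctsf in inhibitory neurons, and Ctsc and Cstb in endothelial cells. In microglia 3 of 3 were higher in the authors' deposited table. Ctsa, which encodes a serine carboxypeptidase that also protects lysosomal glycosidases, had a log2 fold change of 0.36. Ctsh, an aminopeptidase gene, was at 0.27, and Ctsc, which encodes the activator of granule serine proteases, at 0.22. With the 5 cathepsins above, 8 of 14 cathepsin genes were listed in microglia and these 8 were higher, beside 46.8% of all genes and 72.8% of genes of 3.97 to 29.6 kb. The count includes Ctsa and the 5 genes picked with their values known. Outside microglia the deposited values were 0.56 for Ctso in astrocytes, 0.42 and 0.15 for Ctsf in inhibitory neurons and Other, 0.70 and 0.37 for Ctsc and Ctsh in endothelial cells, and -0.13 for Ctsa in Other. Of the cystatins and stefins only Cstb, which encodes a cytosolic cathepsin inhibitor, was listed, in endothelial cells at 1.92 with 10.7% of GWI and 3.2% of Control nuclei.

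Other lysosomal genes in microglia were taken by function. Of 38 genes of other lysosomal hydrolases and their activators 14 were listed in the authors' deposited table and 13 were higher, the median over the 14 being 0.21 on the log2 scale, beside 46.8% of all genes higher and 72.8% of genes of 3.97 to 29.6 kb. Relative to the median of genes in that length range, 10 of the 14 were higher and their median was 0.022. Of the 13 higher genes 2 were listed through the GWI library alone, Tpp1 with 7.3% and Manba with 8.7% of Control nuclei. Tpp1, a tripeptidyl peptidase gene, was at 0.60 and the acid ceramidase gene Asah1 at 0.46. Of 14 genes that sort enzymes to lysosomes 5 were listed and 0 were higher, beside 46.8% of all genes, with a median of -0.28. The lowest were Gnptab, which encodes a subunit of the enzyme that makes the mannose 6-phosphate tag, at -0.43, then Vps35, a retromer subunit gene, at -0.33 and the sorting receptor gene Sorl1 at -0.28. Gnptab, in 8.7% of GWI and 10.0% of Control nuclei, and Vps35, in 9.5% of GWI and 10.3% of Control nuclei, were listed through the Control library alone, which favours a lower value. The listed sorting genes had a median length of 68.2 kb and the hydrolase genes one of 24.0 kb, and the part of length in this contrast was not tested.

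Of 19 genes of the vacuolar proton pump, which acidifies lysosomes, 12 were listed in microglia and 6 were higher, near the 46.8% of all genes, with a median of 0.02. By the fold implied by detected shares 10 of the 12 were higher. The membrane subunit genes Atp6v0b and Atp6v0c were both at 0.54 and Atp6v1h at 0.33 in the authors' deposited table. Tfeb, which encodes a transcription factor of lysosomal genes, was at -0.67, with detection in 11.2% of GWI and 14.7% of Control nuclei. Of 9 receptors, substrates and partners linked to cathepsins 3 were listed and 2 were higher, beside 46.8% of all genes. Lrp1 was at 0.47, Tlr7 at 0.11 and App at -0.18, and Cd74 and the MHC class II genes were not listed.

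**Figure D5:**
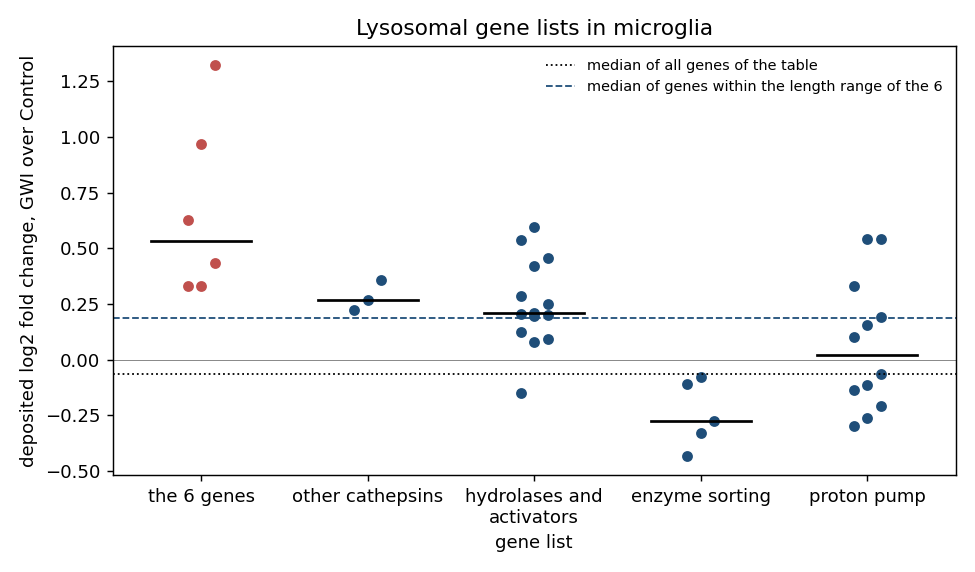
Deposited log2 fold change, GWI over Control, of the listed genes of 5 groups in the microglia table, with each group's median as a bar. The 6 genes (red, median 0.53), the other cathepsins (0.27) and the hydrolases (0.21) lie above the median of genes of similar length (dashed, 0.19), the sorting genes (-0.28) lie below the median of all genes (dotted, -0.06), and the proton pump genes (0.02) lie on both sides of 0.

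Genes whose fold changes over cell types were nearest to those of each member were found by the mean absolute difference over the tables that list the member, as a description. For Cst3, over 7 tables and 488 candidate genes, they were Cd81, a tetraspanin gene, at a mean difference of 0.10, Laptm4a, a lysosomal membrane protein gene, at 0.12 and Cdk11b, a kinase gene, at 0.14. For Ctsl, over 7 tables and 597 candidates, the nearest were Rsrp1 at 0.27, Cd81 at 0.29 and Itm2b at 0.30. In microglia Cd81 was at 0.92, Itm2b at 0.71 and Rsrp1 at 0.44 in the authors' deposited table, all below Ctsl. For Ctsb, over 6 tables, they were Galnt1 at 0.07, Gdi2 at 0.07 and Eef1a1 at 0.09. For Ctsd, over 7 tables, they were Usp6nl at 0.16, Tle4 at 0.16 and Ice1 at 0.19, but none of these came near its OPC value, with -0.29, -0.12 and -0.42 there.

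The genes lie apart in the genome, except that Ctsz and Cst3 share a chromosome. In GRCm38, with the GENCODE M21 annotation, Ctsl spans chr13:64359337-64370890 and Ctsd chr7:142375911-142388038, both on the minus strand. Ctsz spans chr2:174427493-174439039 and Cst3 chr2:148871722-148875692, also on the minus strand. Ctss spans chr3:95526786-95556403 and Ctsb chr14:63122462-63145923, on the plus strand, and all 6 are protein-coding. Some share bases with other annotated genes. Ctsd overlaps Gm49369 on the same strand over 6757 bases, and Ctsb overlaps Fdft1 on the opposite strand over 774 bases. Ctsl overlaps Gm47123 on the opposite strand over 1971 bases and the pseudogene Gm49230 on the same strand over 395 bases. Ctss overlaps the pseudogene Hmgb1-ps5 on the same strand over 557 bases, and Ctsz overlaps Nelfcd on the opposite strand over 10 bases. Reads from shared bases cannot be told apart without knowing how they were assigned, which the sources used here do not state. Of these partners, Fdft1 was listed in 4 tables and each of the others in 0.

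RefSeq promoter windows of GRCm38.p6, from 250 bases before to 50 bases after the annotated start, were found for 5 of the 6 genes, all but Ctsb. Short motifs were chosen and searched on both strands after the windows had been read. The E-box CACGTG, a palindrome that TFEB and related factors can bind, was found in the windows of Ctsd and Ctsl and in 7.15% of all 32851 windows. It begins 98 and 245 bases before the RefSeq start of Ctsd and 236 bases before that of Ctsl. The GENCODE spans given above begin 211 bases further upstream for Ctsd, 370 for Ctsl and 180 for Cst3, so the stretches shown for Ctsd and Ctsl lie inside those spans. The nearer stretch of Ctsd and that of Ctsl are shown, on the minus strand with the E-box in capitals, because both genes carry the motif while their fold changes differ over cell types.
Ctsd, chr7:142387908-142387937: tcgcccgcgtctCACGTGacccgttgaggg
Ctsl, chr13:64370739-64370768: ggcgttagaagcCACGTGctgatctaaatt

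The window of Ctss, listed in microglia alone, holds motifs of another kind. The letters GAAANNGAA, the core of interferon-stimulated response elements, begin 21 bases before its start, and 8.56% of all windows have a match. The letters GAGGAAGT, a site of the ETS type that the myeloid factor PU.1 can bind, match on the reverse strand across the start, and 3.20% of all windows have a match. The stretch up to the end of that match is shown on the plus strand, with both matches in capitals in that order.
Ctss, chr3:95526686-95526791: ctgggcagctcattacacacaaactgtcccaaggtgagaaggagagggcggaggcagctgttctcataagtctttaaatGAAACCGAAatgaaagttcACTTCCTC
None of these 3 motifs was found in the windows of Ctsz and Cst3. A match describes letters only, and binding of any factor was not measured.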

How the data were processed

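The authors deposited 9 tables, 1 per annotated cell type, comparing 1 GWI library with 1 Control library. Reads were processed with Cell Ranger and GRCm38 (mm10), per the submitters' processing notes. How nuclei were clustered and named, doublets treated, means scaled and genes tested is not stated in those sources. The deposited log2 values are fold changes of GWI over Control, per the file headers. The deposited fractions of nuclei with a gene detected were multiplied to percentages. The first group of the header was taken as GWI from the comparison label GWI_PBS_vs_Ctrl_PBS, and every direction rests on that. The deposited p-values compare nuclei, which are not replicates, and were not used.

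The 6 genes and all gene lists were chosen with earlier results of these data known. Named genes were the 6 in every table, the 3 largest absolute log2 fold changes of each list in microglia, and the 3 nearest genes of each member listed in at least 5 tables, without predicted, Riken and mitochondrial genes. Some marker genes, overlapping genes and family members outside microglia were named besides, after their values were seen. Values of some listed genes are not reported here. No test between groups was run, because each group is 1 library. Gene lengths came from GENCODE M21, in which 97.3% of symbols were found. Alternatives were centring, subtracting the gene's median in other tables, detection shares, a 25% detection minimum and size rules of 0.25 and 1. Python 3.11.15, pandas 2.3.3, numpy 2.4.6 and matplotlib 3.10.9 were used.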

Additional observations from a re-analysis of the deposited data

Results flagged for a closer look

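Ctsd was the only one of the 6 genes whose deposited log2 fold change, GWI over Control, had opposite directions in different cell types. It was 0.96 in endothelial cells, 0.33 in microglia and 0.07 in astrocytes, and -0.92 in OPCs, -0.22 in Other, -0.20 in excitatory neurons and -0.09 in inhibitory neurons. With 1 library per group the difference between cell types was not tested. By detected share Ctsd was higher in GWI nuclei of microglia and endothelial cells, equal in astrocytes, and lower in the other 4 tables.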

How the results depend on the processing

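No paired analysis was possible because each group is 1 library, and no library could be left out. Centring on the table median left 6 of 6 genes higher in microglia, with a median of 0.594, and 25 of 29 entries higher. Centring on genes of the same length range, added after seeing the data, gave a microglial median of 0.345 with 6 of 6 higher, 6 entries of at least 0.5 in place of 10, and a hydrolase median of 0.022 in place of 0.208, with 10 of 14 hydrolases higher. The range is that of the 6 genes, and not all hydrolase genes fall within it. It turned Ctsd in astrocytes to -0.036 and Ctsb in excitatory neurons to -0.014. Subtracting each gene's median in the other tables left 3 of 4 genes higher in microglia, with a median of 0.553, 12 of 27 entries higher, 4 entries of at least 0.5, and 4 of 8 entries of other family members higher. By construction it turns the lower values of a gene: Ctsb in microglia (-0.015), excitatory neurons (-0.260) and endothelial cells (-0.182), Ctsl in astrocytes (-0.118), excitatory neurons (-0.164), OPCs (-0.066) and Other (-0.152), and Cst3 in excitatory neurons (-0.290), inhibitory neurons (-0.035), pericytes (-0.091) and Other (-0.120). The fold implied by detected shares gave a microglial median of 0.481 and 10 of 12 proton pump genes higher, and turned Ctsb in endothelial cells to -0.137. A detection minimum of 25% left 13 of 13 entries higher, 4 of at least 0.5, a microglial median of 0.626 over 5 genes, 5 of 5 hydrolases higher, 2 of 2 sorting genes lower and 1 of 2 proton pump genes higher, since fewer genes remain. It left no other family member. Hydrolase medians were 0.271 centred, 0.244 after subtraction and 0.310 from detection. With size rules of 0.25 and 1, 6 and 1 of 6 genes in microglia and 21 and 1 of 29 entries passed. The sources used here give no numbers of nuclei, so the precision of each share is unknown.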
